A study of Mus musculus with 9 samples.

Results

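The glycolysis and hypoxia-inducible genes described here are 40 genes, chosen by symbol from a fixed list, of the 40213 gene symbols counted in 9 RNA-seq libraries of mouse embryonic stem (ES) cells. They are 18 enzymes of the 11 steps that turn glucose into lactate, 4 glucose or lactate transporters, 6 kinases that set glycolytic flux, 3 genes of the oxygen-sensing switch, and 9 targets of hypoxia-inducible factor (HIF) that lie outside glycolysis. All 40 passed the filter on low counts, which 16562 genes passed in all. The study asked whether EWS-OCT4, in which the RNA-binding protein EWS is joined to the transcription factor OCT4, can take over the self-renewal role of OCT4. The groups were a stable line with EWS-OCT4, a stable line with OCT4, and the ES cell line J1 as control, with 3 libraries each. All were grown in ES cell medium with the cytokine LIF. The labels call both stable lines Niwa lines, and state that 1 µg/ml doxycycline was given to them to lower their endogenous OCT4. They do not state doxycycline for J1, nor how many clones a line represents, what drives either transgene, the age of the cultures, or the oxygen level. J1 therefore differs from both stable lines in line and, as far as the labels say, in doxycycline as well as in the form of OCT4, and these cannot be told apart in the comparisons with J1. EWS-OCT4 and OCT4 were both stable lines under doxycycline.

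Glycolysis splits glucose into pyruvate in the cytosol. Lactate dehydrogenase then turns pyruvate into lactate, or pyruvate enters mitochondria, where the pyruvate dehydrogenase complex converts it to acetyl-CoA and is switched off by the pyruvate dehydrogenase kinases. HIF is a pair of subunits whose oxygen-regulated one, HIF-1α, is marked for destruction by prolyl hydroxylases when oxygen is present. Without that mark it binds DNA at the core sequences ACGTG and GCGTG and raises many glycolytic genes together with genes of mitophagy, collagen folding and vessel growth. Mouse ES cells in LIF are known for active glycolysis beside respiration.

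Library totals ran from 21149358 to 24786305 counts, and values are given as CPM, the count relative to a fixed library size after TMM scaling. Adjusted p-values come from the quasi-likelihood test of edgeR, with Benjamini-Hochberg adjustment over all 16562 genes, called under 0.05, and fold changes are log2 unless stated otherwise. Pou5f1, the OCT4 gene, had 25.6, 29.3 and 25.6 CPM in the EWS-OCT4 libraries, 165, 168 and 162 CPM in the OCT4 libraries, and 522, 639 and 545 CPM in the J1 libraries. These counts cannot separate the endogenous gene from an introduced sequence. All 8 ES cell markers were detected in all groups, with summed levels of 3200 to 3300 CPM in EWS-OCT4, 3070 to 3170 CPM in OCT4 and 4490 to 4870 CPM in J1. Of these 8, which include Pou5f1, 5 were called lower and 1, Nanog, higher than J1 in each stable line. Trophectoderm markers summed to 167 to 182 CPM in EWS-OCT4, 351 to 390 CPM in OCT4 and 69.7 to 87.5 CPM in J1, with none of the 8 at 0. Primitive endoderm markers summed to 10.7 to 12.2 CPM in EWS-OCT4, 23.1 to 25.8 CPM in OCT4 and 40.4 to 48.6 CPM in J1, again with none of 8 at 0. The sum hides single markers that went the other way. Of 7 tested against J1, 6 were lower and 1, Sox7, higher in EWS-OCT4. In OCT4, 4 were lower and 1, Gata6, was higher, at 9.34 CPM against 1.76 CPM in J1. Fibroblast markers summed to 23.0 to 26.3 CPM in EWS-OCT4 with Dcn at 0, 34.1 to 40.1 CPM in OCT4 with Lum at 0, and 68.5 to 87.5 CPM in J1 with Dcn, Lum and Twist2 at 0. Mitochondrially encoded RNA took 16.28% to 17.1% of counts in EWS-OCT4, 10.11% to 12.48% in OCT4 and 12.52% to 15.66% in J1. In bulk RNA, fewer cells of a type and less RNA per cell cannot be told apart. Whether replicates were separate cultures is not stated, so p-values rest on library-to-library spread that may be only technical.

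Most of the 40 genes were lower in EWS-OCT4 than in J1, and in the OCT4 line they split. Against J1, 31 fell, 2 rose and 7 were not called in EWS-OCT4, where 31.6% of all genes tested fell and 30.3% rose (61.9% called). In OCT4 against J1, 18 fell, 14 rose and 8 were not called, beside 32.7% and 34.3% of all genes tested (67.0% called). In EWS-OCT4 against OCT4, 23 fell, 12 rose and 5 were not called, beside 34.6% and 31.9% of all genes tested (66.5% called). The share of members that fell was thus 77.5% in EWS-OCT4 against J1, 45.0% in OCT4 against J1 and 57.5% in EWS-OCT4 against OCT4. The median log2 fold change of the 40 was -0.62, -0.09 and -0.49 in these comparisons, against 0.00, 0.01 and -0.04 over all genes tested. The comparisons of EWS-OCT4 and of OCT4 with J1 use the same J1 libraries, so their values are set side by side and no likeness between them is drawn. With over 60% of all genes called in each comparison, a call alone sets no gene apart, and sizes and replicate values are given throughout.

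**Figure D1:**
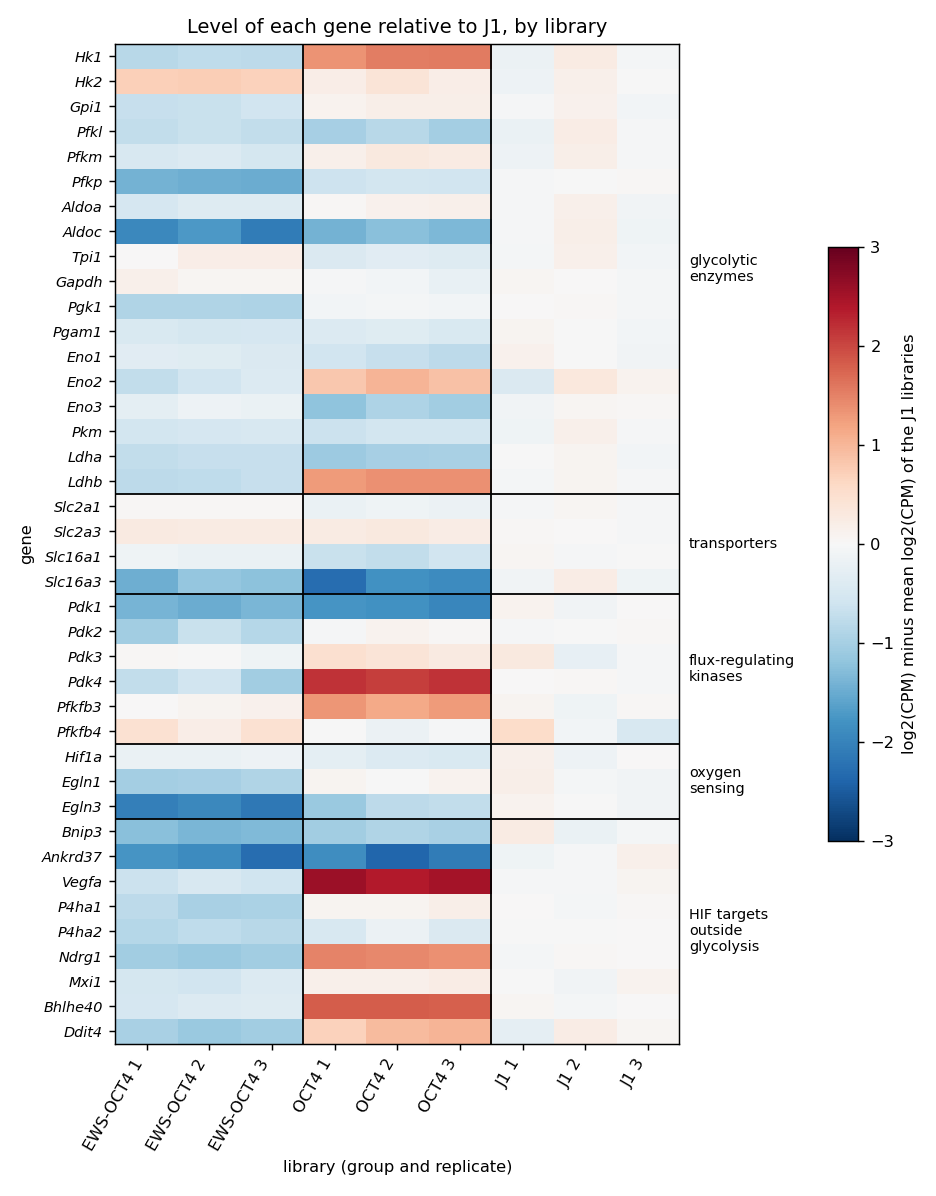
Level of each of the 40 genes (rows) in each of the 9 libraries (columns, EWS-OCT4, OCT4, J1), as log2(CPM) minus the mean log2(CPM) of the J1 libraries. Rows are grouped by role. Most rows are blue in all 3 EWS-OCT4 libraries, while the OCT4 libraries hold both the reddest rows, such as Vegfa and Pdk4, and blue ones, such as Slc16a3 and Pdk1.

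**Figure D2:**
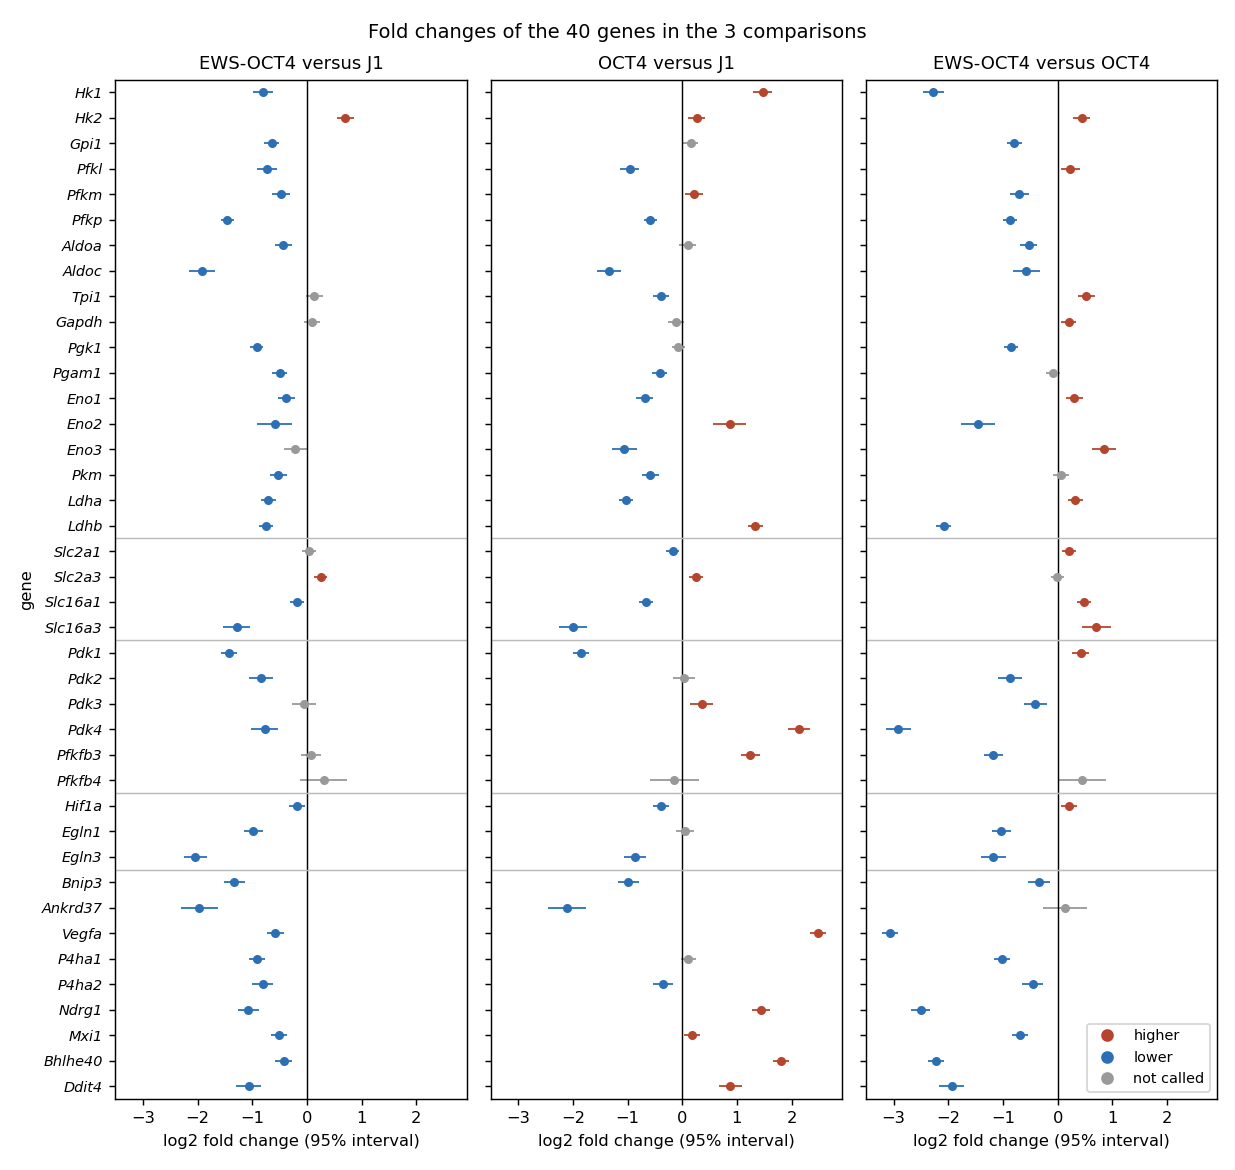
Log2 fold change of the 40 genes with its 95% interval in EWS-OCT4 versus J1, OCT4 versus J1 and EWS-OCT4 versus OCT4, coloured by whether the gene was called higher, lower or not called at an adjusted p of 0.05. The left panel has 31 genes called lower and 2 higher, and the middle panel has 18 lower and 14 higher.

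Glucose enters cells through the transporters encoded by Slc2a1 (GLUT1) and Slc2a3 (GLUT3), and lactate crosses the membrane through those of Slc16a1 (MCT1) and Slc16a3 (MCT4). Of the 4 genes, 1 rose and 2 fell in EWS-OCT4 against J1, 1 rose and 3 fell in OCT4 against J1, and 3 rose and 0 fell in EWS-OCT4 against OCT4. Over all genes tested, 30.3% rose and 31.6% fell in EWS-OCT4 against J1. The shares were 34.3% and 32.7% in OCT4 against J1, and 31.9% and 34.6% in EWS-OCT4 against OCT4. Both lactate transporters fell against J1, and Slc2a3 rose modestly in both lines. Slc2a3 had 1108, 1107 and 1091 CPM in the EWS-OCT4 libraries, 1095, 1141 and 1078 CPM in the OCT4 libraries and 946, 937 and 898 CPM in the J1 libraries. Both stable lines lay above J1 without overlap, by 0.25 ± 0.0644 (SE, adjusted p = 0.00277) in EWS-OCT4 and 0.25 ± 0.0644 (SE, adjusted p = 0.00212) in OCT4, and they overlapped each other. Slc2a3 lies on chromosome 6, whose median gene was at 0.22 in EWS-OCT4 and 0.09 in OCT4 against J1. Relative to these medians, Slc2a3 lay at 0.03 in EWS-OCT4 and 0.16 in OCT4. The part of the chromosome-wide shift in these values was not tested. Slc2a1 had 423, 423 and 425 CPM in the EWS-OCT4 libraries, 357, 377 and 363 CPM in the OCT4 libraries and 404, 430.1 and 404 CPM in the J1 libraries. In EWS-OCT4 it overlapped J1 and was not called (log2 fold change 0.04 ± 0.0627 (SE), adjusted p = 0.613). OCT4 lay just below J1 (log2 fold change -0.17 ± 0.0628 (SE), adjusted p = 0.0208), a call that was lost when OCT4 replicate 1 was left out (-0.15, adjusted p = 0.0809) or OCT4 replicate 3 (-0.17, adjusted p = 0.0604).

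Slc16a3, the high-capacity lactate exporter and a known HIF target, had the largest change of the 4 transporters. It had 24.3, 30.3 and 29.0 CPM in the EWS-OCT4 libraries, 13.8, 19.3 and 18.1 CPM in the OCT4 libraries and 62.3, 79.3 and 62.1 CPM in the J1 libraries. All stable-line libraries lay below all J1 libraries, at 41.1% of J1 in EWS-OCT4 (log2 fold change -1.28 ± 0.124 (SE), adjusted p = 4.86e-07) and 25.1% in OCT4 (log2 fold change -1.99 ± 0.129 (SE), adjusted p = 3.66e-09). EWS-OCT4 was higher than OCT4 by 0.71 ± 0.133 (SE, adjusted p = 0.000267), again without overlap. Slc16a3 lies on chromosome 11, whose median gene was at -0.46 in EWS-OCT4 and -0.49 in OCT4 relative to J1, against 0.05 and -0.03 over all autosomes. The part of this chromosome-wide shift in the result was not tested, and Slc16a3 lay -0.82 in EWS-OCT4 and -1.50 in OCT4 from its chromosome's median. Slc16a1 had 132, 127 and 127 CPM in the EWS-OCT4 libraries, 91.0, 87.7 and 96.7 CPM in the OCT4 libraries and 152, 141 and 143 CPM in the J1 libraries. It was lowest in OCT4 (log2 fold change -0.66 ± 0.065 (SE), adjusted p = 7.33e-08). In EWS-OCT4 it lay slightly below J1 (log2 fold change -0.18 ± 0.0644 (SE), adjusted p = 0.025), and this call was lost without any single EWS-OCT4 replicate or without J1 replicate 1, at adjusted p between 0.0514 and 0.112.

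Hexokinase traps glucose in the cell as glucose-6-phosphate, and its isoforms moved apart. Hk1, the widely expressed form, had 56.7, 59.9 and 58.4 CPM in the EWS-OCT4 libraries, 257, 292 and 295 CPM in the OCT4 libraries and 88.9, 119 and 97.1 CPM in the J1 libraries. The 3 groups did not overlap. EWS-OCT4 stood at 57.4% of J1 (log2 fold change -0.80 ± 0.093 (SE), adjusted p = 1.02e-06) and OCT4 at 2.77 times J1 (log2 fold change 1.47 ± 0.0917 (SE), adjusted p = 2.33e-10), which put EWS-OCT4 4.82-fold below OCT4 (log2 fold change -2.27 ± 0.095 (SE), adjusted p = 1.88e-12). Hk2, the inducible form and a HIF target, had 293, 301 and 289 CPM in the EWS-OCT4 libraries, 206, 236 and 207 CPM in the OCT4 libraries and 163, 200.2 and 179 CPM in the J1 libraries. It was the 1 glycolytic enzyme that rose in EWS-OCT4 against J1 (log2 fold change 0.70 ± 0.0797 (SE), adjusted p = 6.8e-07). It also rose in OCT4 against J1 (log2 fold change 0.26 ± 0.0795 (SE), adjusted p = 0.00768), a call lost without OCT4 replicate 2 (0.20, adjusted p = 0.056), and it was higher in EWS-OCT4 than in OCT4 (log2 fold change 0.44 ± 0.0793 (SE), adjusted p = 9.37e-05). Hk2 is on chromosome 6, as Slc2a3 is, and lay at 0.48 in EWS-OCT4 and 0.17 in OCT4 relative to that chromosome's medians against J1. Per kilobase of its main transcript, Hk2 made up 78.3%, 77.8% and 77.5% of Hk1 plus Hk2 in EWS-OCT4, 35.9%, 36.1% and 32.9% in OCT4 and 56.1%, 54.0% and 56.3% in J1. The shares of the 3 groups did not overlap, and each pairwise exact permutation test gave p = 0.1, the smallest that 3 against 3 libraries allow (adjusted p = 0.131 over 42 share tests).

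Glucose-6-phosphate isomerase, encoded by Gpi1, converts glucose-6-phosphate to fructose-6-phosphate, and phosphofructokinase commits that sugar to glycolysis. Gpi1 averaged 259 ± 10.1 CPM in EWS-OCT4, 449 ± 11.5 CPM in OCT4 and 404 ± 29.4 CPM in J1 (SD, n = 3 each). It was lower in EWS-OCT4 than in both others, at -0.64 against J1 and -0.79 against OCT4. The phosphofructokinase isoforms Pfkl (liver), Pfkm (muscle) and Pfkp (platelet) were all lower in EWS-OCT4 than in J1. Pfkp fell furthest and had 165, 162 and 159.9 CPM in the EWS-OCT4 libraries, 289, 303 and 299.8 CPM in the OCT4 libraries and 436, 441 and 459.8 CPM in the J1 libraries. Its groups did not overlap, with EWS-OCT4 at 36.5% of J1 (log2 fold change -1.46 ± 0.0632 (SE), adjusted p = 4.55e-12) and OCT4 at 66.7% (log2 fold change -0.58 ± 0.0619 (SE), adjusted p = 1.92e-07). Pfkl averaged 113 ± 3.16 CPM in EWS-OCT4, 96.0 ± 6.57 CPM in OCT4 and 187 ± 28.6 CPM in J1. Against J1 it fell in EWS-OCT4 (-0.73) and in OCT4 (-0.96). Between the lines it was 0.23 in EWS-OCT4 over OCT4, a call lost without EWS-OCT4 replicate 2 or 3 or without OCT4 replicate 1 or 3 (adjusted p between 0.0505 and 0.111). Pfkm averaged 27.9 ± 1.33 CPM in EWS-OCT4, 45.2 ± 2.07 CPM in OCT4 and 38.8 ± 4.28 CPM in J1. It fell in EWS-OCT4 (-0.48) and was 0.22 in OCT4 against J1, where the groups overlapped and the call was lost without J1 replicate 1 or 3 or OCT4 replicate 2 or 3 (adjusted p between 0.0653 and 0.111).

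Summed over the 3 isoforms per kilobase of transcript, phosphofructokinase had the lowest level relative to J1 of the 11 steps in EWS-OCT4, at 46.3%. The sum was 79.2 ± 1.47 CPM per kilobase in EWS-OCT4, 113 ± 3.89 in OCT4 and 171 ± 9.63 in J1 (SD, n = 3 each). Pfkp took 49.5% ± 0.882 of that sum in EWS-OCT4, 63.4% ± 0.899 in OCT4 and 62.9% ± 3.36 in J1. The Pfkl share was 38.2% ± 0.634 in EWS-OCT4, 22.7% ± 0.968 in OCT4 and 29.2% ± 2.91 in J1, without overlap. The EWS-OCT4 makeup thus held less Pfkp and more Pfkl than that of either other group, with p = 0.1 in each exact test.

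Aldolase, triosephosphate isomerase and GAPDH handle the split of the sugar and the first energy-yielding oxidation. Aldoa, the main aldolase of most tissues, averaged 811 ± 38.9 CPM in EWS-OCT4, 1173 ± 55.2 CPM in OCT4 and 1092 ± 107 CPM in J1, lower in EWS-OCT4 than in J1 (-0.43) and than in OCT4 (-0.53). Aldoc, the brain form, had 5.19, 6.02 and 4.68 CPM in the EWS-OCT4 libraries, 7.48, 8.36 and 7.81 CPM in the OCT4 libraries and 19.4, 22.3 and 18.3 CPM in the J1 libraries. It was lower in both stable lines, at 26.5% of J1 in EWS-OCT4 (log2 fold change -1.92 ± 0.119 (SE), adjusted p = 3.47e-10) and 39.4% in OCT4 (log2 fold change -1.34 ± 0.113 (SE), adjusted p = 9.6e-09). Per kilobase it made up 0.353% ± 0.0432 of aldolase in EWS-OCT4, 0.363% ± 0.0134 in OCT4 and 0.983% ± 0.00825 in J1, and it lies on chromosome 11, as Slc16a3 does. Tpi1 had 155, 175 and 175 CPM in the EWS-OCT4 libraries, 112, 120.4 and 118 CPM in the OCT4 libraries and 146, 169 and 144 CPM in the J1 libraries. It fell in OCT4 against J1 (log2 fold change -0.39 ± 0.0761 (SE), adjusted p = 0.000211) and was not called in EWS-OCT4 (log2 fold change 0.14 ± 0.0756 (SE), adjusted p = 0.122), where leaving out EWS-OCT4 replicate 1 or J1 replicate 2 gave a call (0.21 in both, adjusted p = 0.0455 and 0.0114). Gapdh averaged 1986 ± 67.7 CPM in EWS-OCT4, 1729 ± 113 CPM in OCT4 and 1868 ± 74.4 CPM in J1. It was not called against J1 in either line (95% interval -0.05 to 0.23 for EWS-OCT4 and 95% interval -0.25 to 0.03 for OCT4). EWS-OCT4 over OCT4 was at 0.20, a call lost without EWS-OCT4 replicate 1 or OCT4 replicate 3 (adjusted p = 0.0626 and 0.116).

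Phosphoglycerate kinase, encoded by Pgk1, makes the first ATP of the pathway, and its level separated the lines clearly. Pgk1 had 269, 269 and 265 CPM in the EWS-OCT4 libraries, 478, 489 and 481 CPM in the OCT4 libraries and 512, 523 and 484 CPM in the J1 libraries. EWS-OCT4 lay at 52.9% of J1 (log2 fold change -0.92 ± 0.0629 (SE), adjusted p = 1.29e-09) and 55.5% of OCT4 (log2 fold change -0.85 ± 0.0628 (SE), adjusted p = 2.26e-09), with no overlap, while OCT4 overlapped J1 (log2 fold change -0.07 ± 0.0622 (SE), adjusted p = 0.341). Pgk1 is X-linked, and the median X-linked gene was at 0.17 in EWS-OCT4 and 0.63 in OCT4 relative to J1, and at -0.45 in EWS-OCT4 relative to OCT4. Relative to those medians, Pgk1 lay at -1.09 in EWS-OCT4 and -0.70 in OCT4 against J1, and -0.40 in EWS-OCT4 against OCT4. The part of the X-wide shift in these values was not tested.

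The last steps carry 3-phosphoglycerate to pyruvate. Pgam1, phosphoglycerate mutase, was lower than J1 in both lines (-0.50 in EWS-OCT4 and -0.41 in OCT4). Pkm, the gene of both M-type pyruvate kinases, likewise fell (-0.52 in EWS-OCT4 and -0.58 in OCT4), and neither gene was called between EWS-OCT4 and OCT4. Eno1, the common enolase, averaged 1136 ± 39.8 CPM in EWS-OCT4, 918 ± 63.9 CPM in OCT4 and 1476 ± 125 CPM in J1, with changes against J1 of -0.38 in EWS-OCT4 and -0.68 in OCT4. Its counts are uncertain because the near-identical copy Eno1b had 13511 counts in EWS-OCT4, 12798 in OCT4 and 19337 in J1, and Eno1 itself had 76721 in EWS-OCT4, 61939 in OCT4 and 105573 in J1. Eno2, the neuronal enolase, had 4.04, 4.50 and 5.05 CPM in the EWS-OCT4 libraries, 11.8, 13.5 and 12.2 CPM in the OCT4 libraries and 4.98, 8.38 and 7.19 CPM in the J1 libraries. It was higher in OCT4 than in both others, at 1.83 times J1 (log2 fold change 0.87 ± 0.153 (SE), adjusted p = 7.22e-05), and EWS-OCT4 was called below J1 (log2 fold change -0.59 ± 0.167 (SE), adjusted p = 0.00535) although the ranges overlapped. Eno3, the muscle enolase, had 9.47, 10.4 and 10.02 CPM in the EWS-OCT4 libraries, 4.99, 6.05 and 5.59 CPM in the OCT4 libraries and 10.7, 12.05 and 11.9 CPM in the J1 libraries. It was lowest in OCT4 (log2 fold change -1.06 ± 0.115 (SE), adjusted p = 2.6e-07), without overlap. In EWS-OCT4 it was not called against J1 (log2 fold change -0.21 ± 0.108 (SE), adjusted p = 0.101) but passed under upper-quartile scaling (-0.26, adjusted p = 0.0493) and with a minimum of 5 CPM (-0.25, adjusted p = 0.043). Per kilobase, Eno2 took 0.286% ± 0.0418 of enolase in EWS-OCT4, 0.974% ± 0.103 in OCT4 and 0.337% ± 0.1004 in J1, and Eno3 took 1.12% ± 0.0712 in EWS-OCT4, 0.773% ± 0.108 in OCT4 and 1.01% ± 0.136 in J1. Aldoc and Eno3 are, with Pdk2, P4ha2 and Slc16a3, the chromosome 11 members. Relative to that chromosome's median against J1, Aldoc lay at -1.46 in EWS-OCT4 and -0.85 in OCT4. Eno3 lay at 0.25 in EWS-OCT4, on the other side of 0, and at -0.57 in OCT4. The part of the chromosome-wide shift in these values was not tested.

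**Figure D3:**
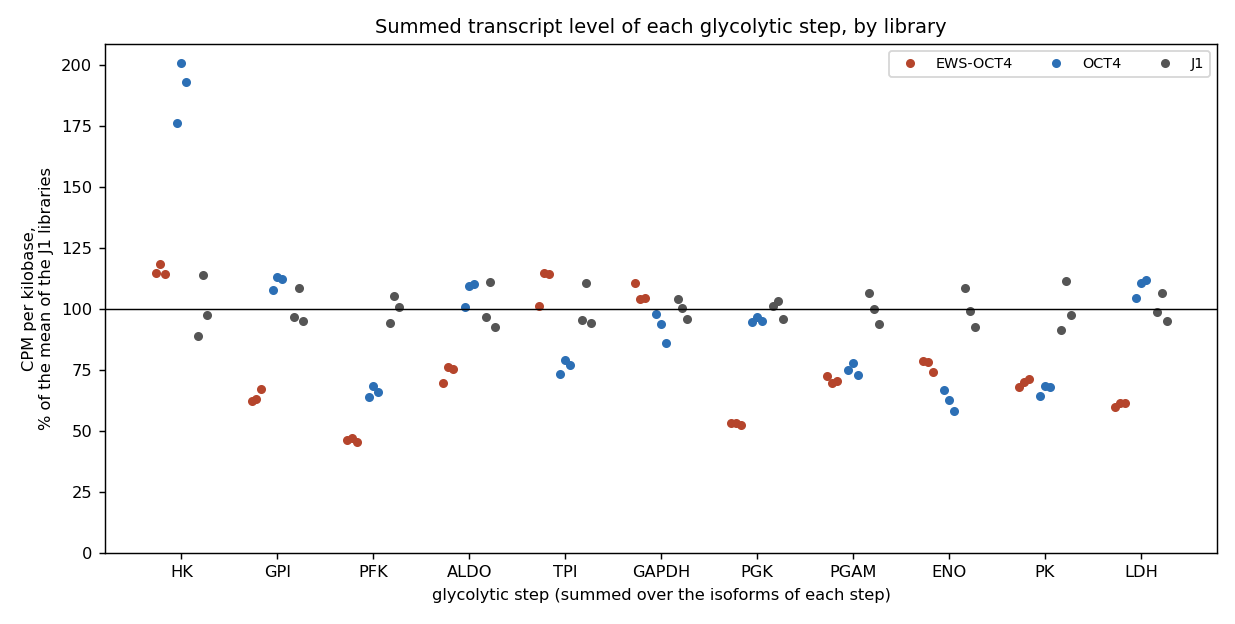
Transcript level of the 11 glycolytic steps in every library, as CPM per kilobase summed over the isoforms of each step and expressed as a percentage of the mean of the J1 libraries. EWS-OCT4 points lie below all J1 points at 8 of 11 steps, lowest at phosphofructokinase (46.3% of J1) and phosphoglycerate kinase (52.9%), and the OCT4 hexokinase points are the highest, at 190% of J1 on average. The share of all genes that lie without overlap was not counted.

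Taken by step, EWS-OCT4 lay below J1 without overlap at 8 of 11 steps, overlapped it at triosephosphate isomerase, and lay above it without overlap at hexokinase (116% of J1) and GAPDH (106%). The last margins were thin. The lowest EWS-OCT4 and highest J1 libraries held 67.55 and 67.21 CPM per kilobase for hexokinase, and 1367.23 and 1366.98 for GAPDH. Gapdh was not called by edgeR's test (adjusted p = 0.303). OCT4 lay below J1 without overlap at 5 steps, overlapped it at 5 and lay above it at hexokinase (190.0%). The share of all genes that lay without overlap was not counted, so these step counts cannot be set against a background. Calls by edgeR's test are a different measure. Of all genes tested, 31.6% were called lower and 30.3% higher in EWS-OCT4 against J1, and 32.7% and 34.3% in OCT4 against J1. Summed over the 18 enzymes, the level was 7727, 7745 and 7697 CPM in the EWS-OCT4 libraries, 8491, 8742 and 8441 CPM in the OCT4 libraries, and 10014, 10598 and 9602 CPM in the J1 libraries. The 3 groups did not overlap in this sum. By gene, 14 enzymes fell and 1 rose in EWS-OCT4 against J1, 9 fell and 5 rose in OCT4 against J1, and 9 fell and 7 rose in EWS-OCT4 against OCT4. In EWS-OCT4 against OCT4, 34.6% of all genes tested fell and 31.9% rose. The median log2 fold changes of the enzymes in the 3 comparisons were -0.56, -0.25 and -0.31.

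The lactate dehydrogenase subunits fell together in EWS-OCT4 and moved apart in OCT4. Ldha encodes the muscle-type subunit, known for turning pyruvate into lactate and as a HIF target, and Ldhb encodes the heart-type subunit, known for favouring lactate oxidation. Their promoters are shown because the 2 genes moved in opposite directions in OCT4. The windows hold 250 bases before to 50 bases after a RefSeq start site, on GRCm38.p6, 5′ to 3′ along the gene, with every ACGTG or GCGTG on either strand in capitals (CACGT and CACGC where the core is on the other strand).
Ldha, upstream start site: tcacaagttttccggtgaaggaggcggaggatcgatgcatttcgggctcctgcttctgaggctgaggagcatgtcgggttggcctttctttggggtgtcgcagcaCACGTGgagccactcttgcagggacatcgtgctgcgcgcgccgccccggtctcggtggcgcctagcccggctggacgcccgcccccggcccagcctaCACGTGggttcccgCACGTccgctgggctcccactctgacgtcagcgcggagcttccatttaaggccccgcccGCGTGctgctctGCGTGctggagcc
Ldha, downstream start site: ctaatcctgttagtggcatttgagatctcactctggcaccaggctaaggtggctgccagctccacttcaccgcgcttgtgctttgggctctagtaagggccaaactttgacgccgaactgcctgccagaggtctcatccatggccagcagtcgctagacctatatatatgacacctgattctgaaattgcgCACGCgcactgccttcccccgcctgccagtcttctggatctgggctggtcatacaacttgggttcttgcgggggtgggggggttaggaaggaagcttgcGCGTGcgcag
Ldhb: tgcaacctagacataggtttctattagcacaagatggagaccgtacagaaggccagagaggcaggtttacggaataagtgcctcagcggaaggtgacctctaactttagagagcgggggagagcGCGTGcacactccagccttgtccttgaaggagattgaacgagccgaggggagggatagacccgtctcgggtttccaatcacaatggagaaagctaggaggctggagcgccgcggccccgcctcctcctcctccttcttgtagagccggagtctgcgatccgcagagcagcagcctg
RefSeq gives 2 start sites for Ldha, and their windows differ. The upstream one (chr7:46845554-46845853, plus strand) held 5 ACGTG matches and 2 GCGTG matches, and the downstream one (chr7:46846832-46847131, plus strand) held 0 ACGTG and 2 GCGTG. Bases just after the start site were found in a GENCODE M21 transcript of Ldha for the downstream window and not for the upstream one, and which start site these cells use was not tested. The 5 ACGTG matches include both strands of 2 CACGTG sequences, the E-box that other factors such as MYC bind. The Ldhb window (chr6:142507908-142508207, minus strand) held 0 ACGTG and 1 GCGTG. A match describes the letters in its window and says nothing of binding in these cells.

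Ldha had 429, 441 and 438 CPM in the EWS-OCT4 libraries, 331, 354 and 359.6 CPM in the OCT4 libraries and 709, 757 and 668 CPM in the J1 libraries. Both lines lay below J1 without overlap, at 61.3% in EWS-OCT4 (log2 fold change -0.71 ± 0.0682 (SE), adjusted p = 1.01e-07) and 49.0% in OCT4 (log2 fold change -1.03 ± 0.0686 (SE), adjusted p = 4.4e-10), and EWS-OCT4 was higher than OCT4 (log2 fold change 0.32 ± 0.0681 (SE), adjusted p = 0.000446). Ldhb had 128, 129.9 and 135 CPM in the EWS-OCT4 libraries, 533, 562 and 567 CPM in the OCT4 libraries and 210.1, 233 and 215 CPM in the J1 libraries. EWS-OCT4 stood at 59.7% of J1 (log2 fold change -0.74 ± 0.0666 (SE), adjusted p = 3.88e-08) and OCT4 at 2.53 times J1 (log2 fold change 1.34 ± 0.0665 (SE), adjusted p = 9.47e-12), so that EWS-OCT4 was 4.23-fold below OCT4 (log2 fold change -2.08 ± 0.0683 (SE), adjusted p = 7.03e-14). The groups did not overlap for either gene. Per kilobase, Ldhb made up 28.8%, 28.5% and 29.4% of lactate dehydrogenase in EWS-OCT4, 68.6%, 68.2% and 68.1% in OCT4 and 28.6%, 29.4% and 30.4% in J1. EWS-OCT4 and J1 overlapped in this share (difference -0.568 percentage points, exact permutation p = 0.5), while OCT4 stood 38.8 points above J1 and EWS-OCT4 39.4 points below OCT4 (p = 0.1 in each). Summed, the step was at 60.8% of J1 in EWS-OCT4 and at 109% in OCT4, where it overlapped J1.

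**Figure D4:**
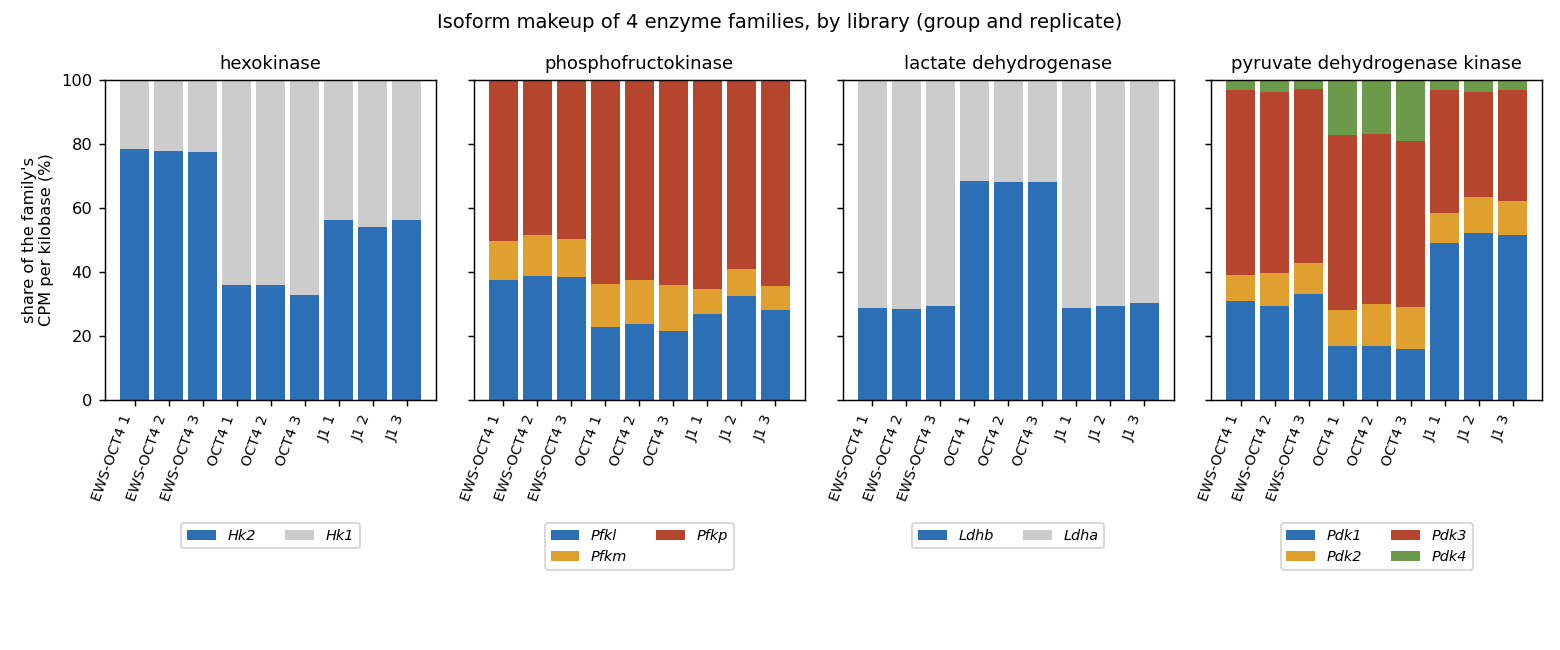
Share of each isoform in the summed CPM per kilobase of hexokinase, phosphofructokinase, lactate dehydrogenase and pyruvate dehydrogenase kinase, 1 bar per library. The Ldhb share is 68.3% on average in OCT4 and below 31% in every other library, and Hk2 is 77.9% of hexokinase in EWS-OCT4 against 35.0% in OCT4 and 55.5% in J1.

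The pyruvate dehydrogenase kinases Pdk1 to Pdk4 switch off the entry of pyruvate into the citric acid cycle. Pdk1, the form induced by HIF, had 53.9, 50.9 and 55.0 CPM in the EWS-OCT4 libraries, 42.0, 40.9 and 36.6 CPM in the OCT4 libraries and 153, 132 and 144 CPM in the J1 libraries. Both lines lay well below J1, at 37.2% in EWS-OCT4 (log2 fold change -1.43 ± 0.0745 (SE), adjusted p = 4.34e-11) and 27.8% in OCT4 (log2 fold change -1.85 ± 0.076 (SE), adjusted p = 8.04e-13), and the groups did not overlap. Pdk4, the form known to rise on fasting and with fatty acid use, had 3.89, 4.37 and 3.16 CPM in the EWS-OCT4 libraries, 29.2, 27.5 and 29.2 CPM in the OCT4 libraries and 6.51, 6.70 and 6.30 CPM in the J1 libraries. OCT4 held 4.39 times the level of J1 (log2 fold change 2.14 ± 0.104 (SE), adjusted p = 7.54e-12) and EWS-OCT4 58.5% of it (log2 fold change -0.77 ± 0.126 (SE), adjusted p = 4.01e-05), the widest gap between the lines among the kinases (log2 fold change -2.91 ± 0.113 (SE), adjusted p = 5.56e-13).

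Pdk2, the broadly expressed form, had 6.15, 7.92 and 6.95 CPM in the EWS-OCT4 libraries, 12.3, 13.5 and 12.8 CPM in the OCT4 libraries and 12.3, 12.6 and 12.97 CPM in the J1 libraries. It was lower in EWS-OCT4 than in J1 (log2 fold change -0.84 ± 0.109 (SE), adjusted p = 3.52e-06) and than in OCT4 (-0.87), and OCT4 overlapped J1. Pdk2 is on chromosome 11 and lay -0.38 in EWS-OCT4 and 0.52 in OCT4 from that chromosome's median against J1, where its own value in OCT4 was 0.03 and not called. Pdk3 had 40.9, 40.1 and 36.6 CPM in the EWS-OCT4 libraries, 55.6, 52.2 and 48.1 CPM in the OCT4 libraries and 49.0, 33.7 and 39.2 CPM in the J1 libraries. OCT4 was called above J1 (log2 fold change 0.35 ± 0.107 (SE), adjusted p = 0.00805) although 1 J1 library overlapped it, and EWS-OCT4 was not called against J1 (log2 fold change -0.05 ± 0.109 (SE), adjusted p = 0.691). Pdk3 is X-linked, and relative to the X median it lay at -0.22 in EWS-OCT4 and -0.28 in OCT4 against J1, and at 0.04 in EWS-OCT4 against OCT4. Per kilobase, Pdk1 made up 31.2% ± 1.99 of the 4 kinases in EWS-OCT4, 16.6% ± 0.477 in OCT4 and 50.9% ± 1.54 in J1. Pdk4 made up 3.30% ± 0.448 in EWS-OCT4, 17.8% ± 1.11 in OCT4 and 3.47% ± 0.418 in J1. The summed kinases stood at 60.8% of J1 in EWS-OCT4 and 85.1% in OCT4, below J1 without overlap in both.

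Pfkfb3 and Pfkfb4 make fructose-2,6-bisphosphate, the activator of phosphofructokinase. Pfkfb3 had 15.001, 15.8 and 16.5 CPM in the EWS-OCT4 libraries, 37.5, 32.9 and 36.5 CPM in the OCT4 libraries and 15.9, 13.8 and 15.4 CPM in the J1 libraries. OCT4 lay above all other libraries, at 2.37 times J1 (log2 fold change 1.25 ± 0.0874 (SE), adjusted p = 8.51e-10), and EWS-OCT4 overlapped J1 (log2 fold change 0.07 ± 0.0914 (SE), adjusted p = 0.515). Pfkfb4 was scarce, at 3.39 ± 0.350 CPM in EWS-OCT4, 2.48 ± 0.156 in OCT4 and 2.72 ± 0.992 in J1, and was not called in any comparison. Without J1 replicate 1 it was called higher in EWS-OCT4 than in J1 (0.63, adjusted p = 0.0153), and without J1 replicate 1 or 3 higher in EWS-OCT4 than in OCT4 (0.45 and 0.47, adjusted p = 0.038 and 0.0484). Over the 6 kinases, 3 fell and 0 rose in EWS-OCT4 against J1, 1 fell and 3 rose in OCT4 against J1, and 4 fell and 1 rose in EWS-OCT4 against OCT4. Of all genes tested, 31.6% fell and 30.3% rose in EWS-OCT4 against J1, and 32.7% and 34.3% in OCT4 against J1. For EWS-OCT4 against OCT4 these shares were 34.6% and 31.9%.

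Oxygen sensing is held here by Hif1a, which encodes HIF-1α, and by Egln1 and Egln3, which encode the prolyl hydroxylases PHD2 and PHD3 and are themselves raised by HIF. The control of HIF-1α by oxygen acts on the protein, which these libraries do not measure. Hif1a had 153, 153 and 158 CPM in the EWS-OCT4 libraries, 143, 131 and 128 CPM in the OCT4 libraries and 193, 157 and 177 CPM in the J1 libraries. It was lower in OCT4 than in J1 (log2 fold change -0.39 ± 0.0767 (SE), adjusted p = 0.000217), without overlap. EWS-OCT4 overlapped J1, and its call (log2 fold change -0.18 ± 0.0765 (SE), adjusted p = 0.0473) was lost in 14 of 18 alternatives, among them the omission of any library other than J1 replicate 2. Without J1 replicate 1 the change was -0.11 (adjusted p = 0.17). The call of EWS-OCT4 above OCT4 (log2 fold change 0.21 ± 0.0768 (SE), adjusted p = 0.0233) was lost without EWS-OCT4 replicate 3, OCT4 replicate 2 or OCT4 replicate 3 (adjusted p between 0.0678 and 0.0962).

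Egln3 had 7.64, 8.31 and 7.12 CPM in the EWS-OCT4 libraries, 14.6, 18.3 and 19.0 CPM in the OCT4 libraries and 34.1, 31.4 and 29.2 CPM in the J1 libraries. The groups did not overlap, and EWS-OCT4 was lowest, at 24.4% of J1 (log2 fold change -2.04 ± 0.111 (SE), adjusted p = 7.15e-11), with OCT4 at 54.9% (log2 fold change -0.87 ± 0.102 (SE), adjusted p = 7.49e-07). Egln1 had 13.8, 14.0 and 14.9 CPM in the EWS-OCT4 libraries, 29.5, 27.8 and 29.8 CPM in the OCT4 libraries and 31.6, 26.8 and 25.8 CPM in the J1 libraries. EWS-OCT4 stood at 50.8% of J1 (log2 fold change -0.98 ± 0.0914 (SE), adjusted p = 6.72e-08) and 49.1% of OCT4 (log2 fold change -1.03 ± 0.0915 (SE), adjusted p = 2.57e-08), while OCT4 overlapped J1 (log2 fold change 0.05 ± 0.0867 (SE), adjusted p = 0.635). Hif1a and Egln3 lie on chromosome 12 and Egln1 on chromosome 8, whose median genes were at -0.28 and -0.41 in EWS-OCT4 and -0.24 and -0.49 in OCT4 against J1. Relative to these medians, Hif1a lay at 0.10, Egln3 at -1.76 and Egln1 at -0.57 in EWS-OCT4, and Hif1a at -0.15, Egln3 at -0.63 and Egln1 at 0.54 in OCT4. The part of these chromosome-wide shifts in the results was not tested.

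The 9 HIF targets outside glycolysis all fell in EWS-OCT4 against J1, where their median was -0.91. In OCT4 against J1, 5 rose, 3 fell and 1 was not called, with a median of 0.18. In EWS-OCT4 against OCT4, 8 fell and 0 rose, with a median of -1.02. Beside these counts, 31.6% of all genes tested fell and 30.3% rose in EWS-OCT4 against J1. The shares were 32.7% and 34.3% in OCT4 against J1, and 34.6% and 31.9% in EWS-OCT4 against OCT4. Their summed level was 165, 161 and 165 CPM in the EWS-OCT4 libraries, 537, 527 and 546 CPM in the OCT4 libraries, and 293, 286 and 301 CPM in the J1 libraries, without overlap. The sum was thus lowest in EWS-OCT4 and highest in OCT4, whereas that of the glycolytic enzymes was highest in J1. Vegfa alone held 204.5 of the mean 536.7 CPM in OCT4 and 36.5 of 293.3 CPM in J1, the largest single part of the OCT4 sum. Ddit4, Bhlhe40 and Ndrg1 also averaged more in OCT4, at 71.4, 64.3 and 34.7 CPM. Their J1 means were 38.9, 18.4 and 12.8 CPM. Bnip3, Ankrd37 and P4ha2 averaged less in OCT4 than in J1. Among 29 other HIF targets tested, described below, 16 fell and 5 rose in OCT4 against J1, with a median of -0.41.

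Bnip3 and Ankrd37 fell in both lines. Bnip3, a mitophagy receptor, had 21.1, 19.4 and 19.97 CPM in the EWS-OCT4 libraries, 24.2, 26.6 and 25.5 CPM in the OCT4 libraries and 59.3, 44.0 and 48.2 CPM in the J1 libraries. EWS-OCT4 lay at 39.9% of J1 (log2 fold change -1.33 ± 0.099 (SE), adjusted p = 4.05e-09) and OCT4 at 50.4% (log2 fold change -0.99 ± 0.0971 (SE), adjusted p = 7.34e-08), with no overlap among the 3 groups. Ankrd37, an ankyrin-repeat gene known mainly as a hypoxia marker, had 2.50, 2.29 and 1.73 CPM in the EWS-OCT4 libraries, 2.31, 1.63 and 1.97 CPM in the OCT4 libraries and 7.79, 8.22 and 9.45 CPM in the J1 libraries. Its lowest library held 36 counts, the fewest of any member in any library. Both lines lay below J1 without overlap (log2 fold change -1.97 ± 0.175 (SE), adjusted p = 3.55e-08 in EWS-OCT4 and log2 fold change -2.10 ± 0.177 (SE), adjusted p = 9.47e-09 in OCT4), and they overlapped each other. Ankrd37 is on chromosome 8, and lay -1.56 in EWS-OCT4 and -1.61 in OCT4 from that chromosome's medians.

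Vegfa, Bhlhe40, Ndrg1 and Ddit4 were lower in EWS-OCT4 and higher in OCT4 than in J1. Vegfa, the main growth factor of blood vessels, had 23.2, 26.0 and 24.2 CPM in the EWS-OCT4 libraries, 216, 191 and 207 CPM in the OCT4 libraries and 35.3, 35.9 and 38.3 CPM in the J1 libraries. OCT4 reached 5.60 times J1 (log2 fold change 2.49 ± 0.0736 (SE), adjusted p = 1.32e-14), EWS-OCT4 stood at 67.1% of J1 (log2 fold change -0.58 ± 0.0758 (SE), adjusted p = 4.09e-06), and EWS-OCT4 was 8.35-fold below OCT4 (log2 fold change -3.06 ± 0.0763 (SE), adjusted p = 3.59e-15), the largest fold change of any member in any of the 3 comparisons. Bhlhe40, a transcriptional repressor tied to circadian and hypoxic responses, had 13.1, 14.0 and 14.2 CPM in the EWS-OCT4 libraries, 64.4, 64.6 and 64.1 CPM in the OCT4 libraries and 19.1, 17.6 and 18.6 CPM in the J1 libraries. EWS-OCT4 was -0.42 and OCT4 1.80 relative to J1 (adjusted p = 0.000173 and 7.04e-13), and EWS-OCT4 relative to OCT4 was -2.22. None of the groups overlapped for Vegfa or Bhlhe40.

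Ndrg1, a gene known for its induction by hypoxia and during differentiation, had 6.20, 5.93 and 6.23 CPM in the EWS-OCT4 libraries, 36.2, 35.1 and 32.9 CPM in the OCT4 libraries and 12.3, 13.2 and 12.97 CPM in the J1 libraries. EWS-OCT4 stood at 47.7% of J1 (log2 fold change -1.07 ± 0.0955 (SE), adjusted p = 3.87e-08) and OCT4 at 2.70 times J1 (log2 fold change 1.44 ± 0.0828 (SE), adjusted p = 6.54e-11). Ddit4, an inhibitor of mTORC1 signalling also known as REDD1, had 19.5, 17.7 and 18.7 CPM in the EWS-OCT4 libraries, 62.4, 74.1 and 77.6 CPM in the OCT4 libraries and 31.9, 45.0 and 39.9 CPM in the J1 libraries. It was -1.06 in EWS-OCT4 and 0.88 in OCT4 relative to J1 (adjusted p = 7.32e-07 and 2.11e-06). Mxi1, a MAX-binding antagonist of MYC, averaged 39.7 ± 2.36 CPM in EWS-OCT4, 63.8 ± 1.48 CPM in OCT4 and 56.4 ± 4.03 CPM in J1. It fell in EWS-OCT4 (-0.51). In OCT4 its value of 0.18 (adjusted p = 0.0365) lost its call in 11 of 18 alternatives, among them the omission of any 1 OCT4 library, any 1 EWS-OCT4 library or J1 replicate 2 (0.13, adjusted p = 0.122). Ndrg1 and Ddit4, like Vegfa, held 3 groups that did not overlap. Trophectoderm markers, whose summed level was higher in OCT4 than in EWS-OCT4 or J1, had 7 of 8 higher and 0 lower in OCT4 against J1, 6 higher and 1 lower in EWS-OCT4 against J1, and 1 higher and 5 lower in EWS-OCT4 against OCT4. Over all genes tested, the shares higher and lower in these comparisons were 34.3% and 32.7%, 30.3% and 31.6%, and 31.9% and 34.6%. The part of these markers in the values of the HIF targets was not tested.

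**Figure D5:**
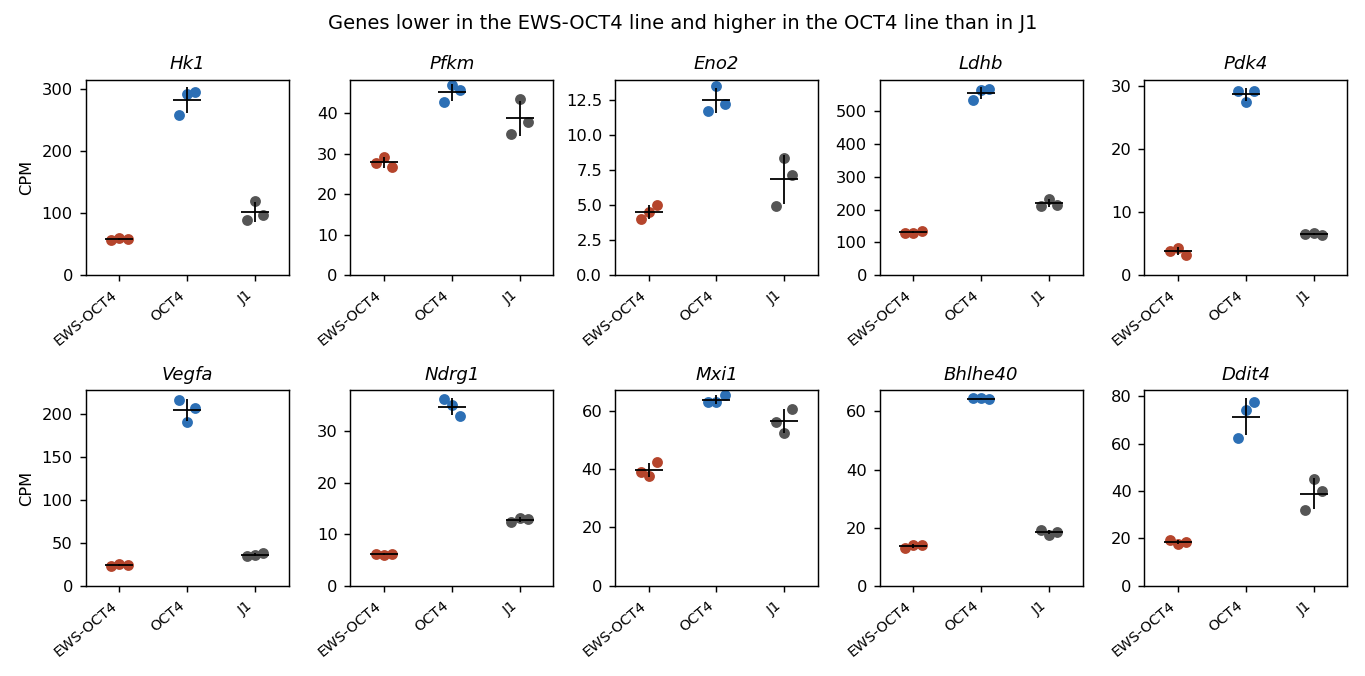
CPM of the 10 genes called lower in EWS-OCT4 than in J1 and higher in OCT4 than in J1, 1 point per library, with the mean (horizontal line) and SD (vertical line, n = 3) of each group on a linear axis from 0. For Hk1, Ldhb, Pdk4, Vegfa, Ndrg1, Bhlhe40 and Ddit4 the 3 groups are fully separate, while for Pfkm and Mxi1 the OCT4 and J1 points lie close together.

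P4ha1 and P4ha2 encode the catalytic subunits of collagen prolyl 4-hydroxylase. P4ha1 averaged 26.3 ± 1.87 CPM in EWS-OCT4, 53.5 ± 2.06 CPM in OCT4 and 49.5 ± 1.55 CPM in J1, lower in EWS-OCT4 than in J1 (log2 fold change -0.91 ± 0.0743 (SE), adjusted p = 1.22e-08) and not called in OCT4 (log2 fold change 0.11 ± 0.0715 (SE), adjusted p = 0.169). P4ha2 had 12.02, 12.9 and 12.3 CPM in the EWS-OCT4 libraries, 15.7, 19.3 and 16.2 CPM in the OCT4 libraries and 21.7, 21.5 and 22.1 CPM in the J1 libraries. The groups did not overlap, with EWS-OCT4 at -0.81 and OCT4 at -0.35 relative to J1. P4ha2 is on chromosome 11, and relative to that chromosome's median it lay at -0.35 in EWS-OCT4 and at 0.14, on the other side of 0, in OCT4.

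Promoter windows of 37 of the 40 genes were in the RefSeq table for GRCm38.p6, 54 windows in all, since several genes have more than 1 start site. Windows of the same gene can overlap, as for Aldoa and Eno1, so a match can be counted more than once. ACGTG on either strand was found in 30 of the 54 windows (55.6%), against 19.6% of all 32851 windows of the same length. GCGTG was found in 30 (55.6%), against 32.4%, and at least 1 of the 2 cores in 43 (79.6%), against 43.8%. CACGTG, which contains ACGTG on both strands, was found in 7 of the 54 windows, against 2349 of all 32851 (7.15%). The genes were chosen as glycolytic and hypoxia-inducible, so a higher share of these cores may follow from the choice and adds no support. The members' windows were also richer in G and C, with a median of 62.7% against 52.7%, and the part of base composition in the motif shares was not tested. By gene, 34 of 37 members held at least 1 core, against 46.7% of all 27025 genes, and a gene with several windows has more chances to hold one. The windows of Bnip3 and Ankrd37, which fell in both lines, of Pgk1, which fell in EWS-OCT4 and was not called in OCT4, and of Ddit4, which moved in opposite directions, are shown to set these patterns beside the letters. Capitals again mark ACGTG and GCGTG on either strand.
Bnip3: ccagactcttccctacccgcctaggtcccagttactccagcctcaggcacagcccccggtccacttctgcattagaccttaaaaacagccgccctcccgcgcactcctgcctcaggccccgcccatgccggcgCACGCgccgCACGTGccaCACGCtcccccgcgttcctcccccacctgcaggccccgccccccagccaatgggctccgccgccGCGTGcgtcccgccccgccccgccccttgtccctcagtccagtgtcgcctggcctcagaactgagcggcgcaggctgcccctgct
Ankrd37: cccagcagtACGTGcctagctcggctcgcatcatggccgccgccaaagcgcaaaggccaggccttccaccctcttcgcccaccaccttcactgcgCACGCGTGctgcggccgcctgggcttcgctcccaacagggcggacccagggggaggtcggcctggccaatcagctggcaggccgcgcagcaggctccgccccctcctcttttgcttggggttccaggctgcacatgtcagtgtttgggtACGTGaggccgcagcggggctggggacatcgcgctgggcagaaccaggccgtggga
Pgk1: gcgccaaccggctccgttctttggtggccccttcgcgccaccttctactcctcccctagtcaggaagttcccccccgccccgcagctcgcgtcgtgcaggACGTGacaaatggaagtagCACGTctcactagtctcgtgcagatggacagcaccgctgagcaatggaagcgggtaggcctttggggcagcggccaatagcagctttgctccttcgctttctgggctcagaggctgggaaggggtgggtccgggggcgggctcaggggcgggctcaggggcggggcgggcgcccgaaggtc
Ddit4: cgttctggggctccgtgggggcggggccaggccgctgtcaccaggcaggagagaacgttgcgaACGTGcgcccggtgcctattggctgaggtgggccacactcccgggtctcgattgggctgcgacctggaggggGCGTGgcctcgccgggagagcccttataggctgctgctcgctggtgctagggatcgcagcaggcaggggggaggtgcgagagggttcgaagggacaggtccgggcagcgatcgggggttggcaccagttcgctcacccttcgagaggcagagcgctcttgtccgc
In the same build, the Bnip3 window (chr7:138909457-138909756, minus strand) has 2 ACGTG and 3 GCGTG, and that of Ankrd37 (chr8:45999801-46000100, minus strand) has 2 of each. Pgk1 (chrX:106186850-106187149, plus strand) has 2 ACGTG and 0 GCGTG. Ddit4 (chr10:59951721-59952020, minus strand) has 1 of each. In Bnip3 the 2 ACGTG matches are the 2 strands of 1 CACGTG. The windows shown all hold cores, and others do not. Gpi1, Tpi1 and Eno2 had 0 of each, and Eno2 also moved in opposite directions. Vegfa, which did so too, had 1 of each at chr17:46025114-46025413 and 0 of each at chr17:46032328-46032627.

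Further genes of the same pathways, from lists that do not include the 40, moved in both directions. Over all genes tested, 31.6% fell and 30.3% rose in EWS-OCT4 against J1, and 32.7% fell and 34.3% rose in OCT4 against J1. For EWS-OCT4 against OCT4 the shares were 34.6% and 31.9%. The counts of each further list stand beside these shares. Of 30 other HIF targets, 29 were tested, and 17 fell and 1 rose in EWS-OCT4 against J1, 16 fell and 5 rose in OCT4 against J1, and 10 fell and 10 rose in EWS-OCT4 against OCT4 (medians -0.42, -0.41 and -0.12). Bnip3l, the mitophagy partner of Bnip3, was at -1.39 in EWS-OCT4 and -1.20 in OCT4. Car12, a carbonic anhydrase, was at -2.33 in EWS-OCT4 and -1.29 in OCT4. Loxl2, which crosslinks collagen, was at -1.94 in EWS-OCT4 and -2.52 in OCT4. Fam162a fell furthest after Loxl2 among those with at least 5 CPM in OCT4 against J1, at -1.61. Ak4, a mitochondrial adenylate kinase, had 52.9, 53.3 and 55.2 CPM in the EWS-OCT4 libraries, 255, 262 and 244 CPM in the OCT4 libraries and 79.3, 73.9 and 73.4 CPM in the J1 libraries. Its OCT4 libraries lay above all others (log2 fold change 1.75 ± 0.0651 (SE), adjusted p = 2.12e-13), and EWS-OCT4 was lower than OCT4 (log2 fold change -2.24 ± 0.0666 (SE), adjusted p = 2.32e-14). Ppp1r3c, a glycogen-targeting subunit of protein phosphatase 1, was at 1.13 ± 0.176 CPM in EWS-OCT4, 5.04 ± 0.331 CPM in OCT4 and 0.885 ± 0.0436 CPM in J1, called higher in OCT4 than in J1 (2.50) and lower in EWS-OCT4 than in OCT4 (-2.16). The 1 gene of the list that rose in EWS-OCT4 against J1, named after its values were seen, was Edn1, which encodes the vasoconstrictor endothelin, at 2.79 ± 0.407 CPM in EWS-OCT4 and 0.908 ± 0.403 CPM in J1 (log2 fold change 1.64 ± 0.273 (SE), adjusted p = 5.22e-05). Angptl4, a secreted inhibitor of lipoprotein lipase, was higher in EWS-OCT4 than in OCT4 (1.00).

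Of 10 other oxygen-sensing genes, 3 rose and 3 fell in EWS-OCT4 against J1, 4 rose and 4 fell in OCT4 against J1, and 4 rose and 2 fell in EWS-OCT4 against OCT4. Cited2, which competes with HIF-1α for its coactivator, was at 1.33 in EWS-OCT4 and 0.81 in OCT4. Vhl, the ubiquitin ligase subunit that recognises hydroxylated HIF-1α, was at 0.38 in EWS-OCT4 and 0.52 in OCT4. Arnt, the constant partner of HIF-1α, was lower in EWS-OCT4 than in J1 (-0.43) and than in OCT4 (-0.64). Epas1, which encodes HIF-2α, was lower in OCT4 than in J1 (-0.74) and higher in EWS-OCT4 than in OCT4 (0.59). Egln2, the third prolyl hydroxylase, rose in EWS-OCT4 against J1 (0.60).

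Of 20 other glycolytic isoforms and neighbouring enzymes, 18 were tested, and 4 rose and 6 fell in EWS-OCT4 against J1, 3 rose and 9 fell in OCT4 against J1, and 6 rose and 9 fell in EWS-OCT4 against OCT4. In EWS-OCT4 against J1 these were 22.2% and 33.3%, beside 30.3% and 31.6% of all genes tested. Pgm2, of the phosphoglucomutase family, had 34.1, 34.3 and 35.8 CPM in the EWS-OCT4 libraries, 127, 124 and 124 CPM in the OCT4 libraries and 30.7, 25.6 and 30.6 CPM in the J1 libraries. All OCT4 libraries lay above all others (log2 fold change 2.11 ± 0.0757 (SE), adjusted p = 1.35e-13). Pgm1, of the same family, was at -1.16 in EWS-OCT4 and -0.49 in OCT4 against J1. Tigar, a phosphatase that lowers fructose-2,6-bisphosphate, rose in EWS-OCT4 against J1 (0.44) and against OCT4 (0.67). Of 11 other transport genes, 8 were tested, with 2 higher and 2 lower in EWS-OCT4 against J1, 3 higher and 1 lower in OCT4 against J1, and 0 higher and 3 lower in EWS-OCT4 against OCT4. Slc2a4, the insulin-responsive glucose transporter GLUT4, was at 1.08 ± 0.235 CPM in EWS-OCT4, 5.67 ± 0.670 CPM in OCT4 and 1.29 ± 0.200 CPM in J1 (2.13 in OCT4 against J1). Mpc1, a subunit of the mitochondrial pyruvate carrier, rose in both lines against J1, by 0.49 in EWS-OCT4 and 1.21 in OCT4.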

How the data were processed

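Total RNA of 9 mouse ES cell libraries was extracted with RNAiso Plus and prepared with the CORALL V2 kit, per the labels' protocols. For each library the authors deposited a table of raw, whole-number read counts by gene symbol. GATK, fastp, Salmon, STAR and the mouse build GRCm39 are named in the submitters' processing notes. Their versions, the annotation, strand use and collapse of molecular identifiers are not stated there, so counts of overlapping genes and near-identical copies (Eno1, Gapdh) are uncertain. Of 40213 symbols, 12189 had no count in any library. Library totals were 21149358 to 24786305 counts, and replicates of every group differed by more than counting noise (chi-square per degree of freedom 3.28 to 31.4).

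Groups came from the sample titles and cell line labels. Genes were kept with edgeR's filterByExpr (minimum count 10, minimum total 15), leaving 16562, and libraries were scaled by TMM. A model with a term per group was fitted to the 9 libraries together (robust glmQLFit, then glmQLFTest, edgeR 4.0.16 under R 4.3.3), and p-values were adjusted by Benjamini-Hochberg and called under 0.05. Standard errors were taken as the absolute log2 fold change over the square root of F. Isoform shares and step sums divide CPM by the length of the principal GENCODE M21 transcript, and shares were compared by two-sided exact permutation tests. Chromosome medians use genes with at least 5 CPM on average. The fit was first tested on simulated counts. The replicate number was not used as a block.

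Alternatives were scaling by RLE or by the upper quartile, omission of the low-count filter, a floor of 5 CPM in 3 libraries, DESeq2 1.42.0, limma-voom (limma 3.58.1), only the 6 libraries compared, the replicate block, omission of the 13 mitochondrial genes and Gm26917, and each library left out in turn. The 40 members and all lists were chosen with earlier results of these data known. All members are accounted for. Library values are given for up to 3 members per direction, comparison and role with an adjusted p under 0.05, a mean of 5 CPM or more in the higher group and the largest change, and genes of the further lists were named from those that the same rule picks. Ddit4 was given library values, and Edn1 was named, after their values were seen. Promoter sequences are RefSeq's on GRCm38.p6, a build other than that of the counts.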

Additional observations from a re-analysis of the deposited data

Results flagged for a closer look

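For 10 members the lines lay on opposite sides of J1, called lower in EWS-OCT4 and higher in OCT4. The quasi-likelihood test of edgeR also called all 10 lower in EWS-OCT4 than in OCT4. Because they were picked for lying on opposite sides of the same J1 libraries, that gap follows from the choice and adds no support. How many of all genes tested meet the same rule was not counted. The log2 fold change of EWS-OCT4 over OCT4 was -3.06 for Vegfa, -2.91 for Pdk4, -2.50 for Ndrg1, -2.27 for Hk1 and -2.22 for Bhlhe40. It was -2.08 for Ldhb, -1.94 for Ddit4 and -1.46 for Eno2. For Pfkm it was -0.70 and for Mxi1 -0.69. The EWS-OCT4 and J1 libraries overlapped for Eno2, and the OCT4 and J1 libraries overlapped for Pfkm. The calls of OCT4 above J1 were lost in 5 of 18 alternatives for Pfkm and in 11 of 18 for Mxi1, though both values stayed positive.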

How the results depend on the processing

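Counts of members called lower were 29 to 32 in EWS-OCT4 against J1, 17 to 18 in OCT4 against J1 and 23 in EWS-OCT4 against OCT4 over all alternatives, and counts called higher were 2 to 3, 11 to 15 and 9 to 13. With single libraries left out, the enzyme median ran from -0.63 to -0.47 in EWS-OCT4 against J1 and from -0.30 to -0.22 in OCT4 against J1, and the median of the HIF targets outside glycolysis ran from 0.13 to 0.21 in OCT4 against J1. With a minimum of 5 CPM in 3 libraries the enzyme median of EWS-OCT4 against OCT4 was -0.35. The causes were not tested.

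The calls that were lost in at least 1 alternative belong to Hif1a and Slc16a1 in EWS-OCT4 against J1, to Mxi1, Pfkm, Slc2a1 and Hk2 in OCT4 against J1, and to Gapdh, Hif1a and Pfkl in EWS-OCT4 against OCT4. No called member changed sign. Values that were not called did. In EWS-OCT4 against J1, Slc2a1 was at -0.01 with upper-quartile scaling and with the 5 CPM minimum, and Pdk3 ran from -0.17 to 0.10 with libraries left out, at 0.10 without J1 replicate 1. In OCT4 against J1, Pfkfb4 ran from -0.36 to 0.18, Egln1 from -0.03 to 0.14 and Pdk2 from 0.00 to 0.06 in the same way. In EWS-OCT4 against OCT4, Slc2a3 ran from -0.02 to 0.02 with libraries left out, and turned positive in 11 alternatives (0.01 with only the 6 libraries compared and without the mitochondrial genes, 0.02 with RLE scaling, no low-count filter and DESeq2). Isoform shares that changed sign were Pfkp in OCT4 against J1 (-1.47 to 1.67 points with libraries left out), Aldoc in EWS-OCT4 against OCT4 (-0.0279 to 0.0137 points) and, as shares of counts without division by length, Pdk2 and Pdk4 in EWS-OCT4 against J1 (0.543 and 0.458 points) and Pdk3 in EWS-OCT4 against OCT4 (-1.04 points). The Pdk4 share in EWS-OCT4 against J1 ran from -0.38 to 0.068 points with libraries left out.

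Replicate numbers are shared by the groups. The correlation of same-numbered libraries' deviations was between -3.17e-05 and 0.0737, and that of differently numbered ones between -0.0644 and 0.0334. With the number as a block, 5195 of all genes tested rose and 5339 fell in EWS-OCT4 against J1, against 5016 and 5233 without it. Whether a number marks something the libraries share was not tested, and these small values cannot decide it. Not every library correlated best with its own number: EWS-OCT4 replicate 1 was at 0.0157 with OCT4 replicate 1 and at 0.0334 with OCT4 replicate 2. With the replicate block, 31 members fell and 2 rose in EWS-OCT4 against J1, 18 and 15 in OCT4 against J1, and 23 and 12 in EWS-OCT4 against OCT4. Enzyme medians under the block were -0.55, -0.25 and -0.31, and HIF-target medians -0.91, 0.18 and -1.03. The 1 added call was Gpi1 in OCT4 against J1 (0.15, adjusted p = 0.0431). Ankrd37, Pfkfb4 and Pdk4 had the fewest counts, down to 36, 40 and 75 in a library, and depth limits them most.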

Other observations

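The pyruvate dehydrogenase complex, which passes pyruvate to the citric acid cycle, had genes called in both directions among its 8. In EWS-OCT4 against J1, 3 rose and 3 fell, in OCT4 against J1 1 rose and 4 fell, and in EWS-OCT4 against OCT4 4 rose and 2 fell. The 37.5% each way in EWS-OCT4 against J1 stood beside 30.3% higher and 31.6% lower over all genes tested. These all-gene shares were 34.3% and 32.7% in OCT4 against J1, and 31.9% and 34.6% in EWS-OCT4 against OCT4. Pdha1, the catalytic subunit that the pyruvate dehydrogenase kinases phosphorylate, had 271, 254 and 257 CPM in the EWS-OCT4 libraries, 396, 379 and 367 CPM in the OCT4 libraries and 139, 140.0 and 143 CPM in the J1 libraries. All libraries of both lines lay above J1 (log2 fold change 0.89 ± 0.0641 (SE), adjusted p = 2.5e-09 in EWS-OCT4 and log2 fold change 1.44 ± 0.0646 (SE), adjusted p = 2.62e-12 in OCT4). Pdha1 is X-linked, and the X median was at 0.17 in EWS-OCT4 and 0.63 in OCT4. Pdp2, a phosphatase that reactivates the complex, fell in EWS-OCT4 against J1 (-0.96) and against OCT4 (-1.06). Dld, the shared dihydrolipoamide dehydrogenase, fell in both lines against J1 (-0.53 in EWS-OCT4 and -0.70 in OCT4). Pdhx, the subunit that docks Dld, rose in EWS-OCT4 (0.39) and fell in OCT4 (-0.51).

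The pentose phosphate pathway, which draws glucose-6-phosphate off for NADPH and ribose, had 7 genes, with 2 higher and 1 lower in EWS-OCT4 against J1, 4 higher and 1 lower in OCT4 against J1, and 1 higher and 3 lower in EWS-OCT4 against OCT4. In EWS-OCT4 against J1 these were 28.6% and 14.3%, beside 30.3% and 31.6% of all genes tested. The all-gene shares higher and lower were 34.3% and 32.7% in OCT4 against J1, and 31.9% and 34.6% in EWS-OCT4 against OCT4. Pgd, which makes NADPH in the oxidative branch, was at 82.7 ± 2.27 CPM in EWS-OCT4, 52.9 ± 4.59 CPM in OCT4 and 62.6 ± 4.62 CPM in J1 (SD, n = 3 each), higher in EWS-OCT4 than in OCT4 (log2 fold change 0.64 ± 0.0766 (SE), adjusted p = 9.49e-07). Tkt and Taldo1, the transketolase and transaldolase that return sugars to glycolysis, were lower in EWS-OCT4 than in OCT4 (-0.51 and -0.66).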
